A study of Mus musculus with 4 samples.

Results

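The S100, small proline-rich (Sprr), late cornified envelope (Lce) and other cornified envelope genes were compared between mouse mammary tumors. The tumors came from mice with or without deletion of Rank in the mammary epithelium. Members were taken by name alone: every gene whose symbol is S100a followed by a number alone, S100b, every Sprr and Lce gene, and Lor, Ivl, Flg, Flg2, Krtdap, Sbsn, Tgm1, Tgm3, Cnfn, Sfn, Anxa8, Calml3 and Ly6d. This gave 59 rows with 58 symbols among the 23746 rows of the expression tables, made up of 14 S100, 15 Sprr, 18 Lce and 12 other differentiation genes. Sprr2a2 was listed at 2 loci, and Flg is not analysed here.

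PolyA RNA of 4 primary mammary tumors of female mice was sequenced, 1 library per tumor. Tumors 26043 and 26044 came from WapCreC;Rank;Brca1;p53 females (triple-mutant), and tumors 26048 and 26050 from WapCreC;Brca1;p53 females (double-mutant), so that both genotypes carried the WapCreC transgene with floxed Brca1 and p53 and differed in the floxed Rank allele. In this line Cre is driven by the promoter of the whey acidic protein gene and acts in luminal and basal mammary epithelial cells. The labels give no strain, age, treatment or grade of the single tumors, and the libraries hold whole tumor tissue, in which fewer cells of a type and less RNA per cell cannot be told apart. Values are FPKM, fragments scaled to transcript length and to the mapped fragments of the library, which allow levels to be compared between genes of different length.

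The cornified envelope is a layer of crosslinked protein that replaces the plasma membrane of keratinocytes as they die at the surface of stratified epithelia. Calcium drives its assembly: transglutaminases join involucrin, loricrin, Sprr and Lce proteins to a scaffold at the desmosomes, and many S100 proteins, small calcium-binding proteins with EF-hand motifs, are expressed in the same cells or are crosslinked with them. Mammary epithelium normally makes no such envelope, although it expresses several S100 genes, and squamous differentiation is known as a metaplastic change of mammary tumors.

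Between 12150 and 12681 genes per tumor reached 1 FPKM. Read depth is unknown, since FPKM keeps no plain record of read number. The median half-width of the confidence interval that Cufflinks gives with each value was 8.35% to 8.78% per tumor over such genes. Over the members that were tested it was 7.68% to 18.4%. However, 5668 to 6827 of the 23746 rows per tumor had an FPKM outside their own interval, so its width does not give the precision of the values. Rank (Tnfrsf11a), the deleted receptor gene, was at 2.07 and 0.962 FPKM in the triple-mutant tumors and at 10.6 and 11.9 FPKM in the double-mutant tumors, with a log2 fold change of -2.32 (standard error, SE, 0.37, limma adjusted p = 0.225). The study reported high-grade tumors in double-mutant females alone. Since the grade of the single tumors is not given, loss of Rank and grade cannot be told apart here. The comparison asked how expression differs between the genotypes. It was made with limma on log2(FPKM + 1) over the 12752 genes that reached 1 FPKM in 2 or more tumors, with Benjamini-Hochberg adjustment over all of them, and fold changes are triple-mutant minus double-mutant on this scale, on which low genes seem to change less than they do. With 2 tumors of each genotype the p-values measure only the spread between these tumors, and for a single value the smallest p of an exact permutation test is 0.33.

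Of the 59 members, 20 passed the filter on low values: 12 S100 genes, Sprr1a, Lor, Tgm1, Sbsn, Sfn, Anxa8, Calml3 and Ly6d. In 6 further members 1 tumor alone reached 1 FPKM, and 33 stayed under 1 FPKM in every tumor, with 0.594 FPKM for Sprr2f in tumor 26044 as the highest. A value of exactly 0 in all 4 tumors was listed for 23 members, 8 Sprr and 15 Lce rows. More members were above 0 in the triple-mutant tumors (34 and 28 of 59) than in the double-mutant ones (22 and 24 of 59). Ranked from the highest over all 23746 rows, values of 0 began at rank 17585 and 17408 in the triple-mutant tumors. In the double-mutant tumors they began at rank 17444 and 17489, so the number of all rows above 0 differed little between tumors. Summed over all members, FPKM came to 5833 and 2698 in triple-mutant against 2462 and 1571 in double-mutant tumors, which is 0.844%, 0.339%, 0.347% and 0.212% of all FPKM. The sum thus stood apart in tumor 26043, and tumor 26044 lay close to tumor 26048.

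No member passed the adjusted threshold of 0.05 in limma (0 of 20), where 0.00% of all 12752 genes passed it. At an unadjusted p under 0.05 stood 5 of the 20, S100a3, Sprr1a, S100a16, S100a14 and Calml3, against 9.82% of all genes. Both triple-mutant tumors lay above both double-mutant tumors for 10 of 20 members, against 21.3% of all genes, and the opposite order held for 0 of 20, against 22.9%. With a difference of at least 1 log2 unit as well, 9 members were higher in both triple-mutant tumors, where the background was 7.30%, and 0 in both double-mutant tumors, where it was 4.65%. The median log2 fold change was 1.08 over the 20 members, 0.73 over the 12 S100 genes and 1.42 over the 7 other differentiation genes, beside -0.02 over all genes tested. These counts cover only members that passed the filter, and a member that passed through the triple-mutant tumors alone had to differ, so they describe the list and are no test of it. Tumor 26043 was the highest of the 4 for 14 of 20 members, against 27.9% of all genes, and this held for 7 of 7 other differentiation genes and 6 of 12 S100 genes.

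**Figure D1:**
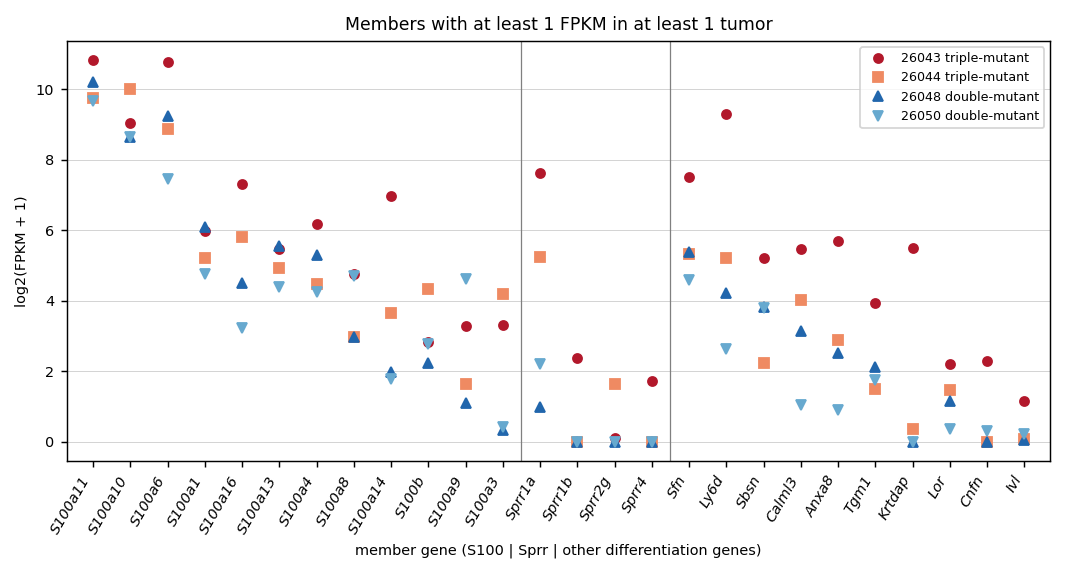
Expression of the members that reached 1 FPKM in any tumor, on the log2(FPKM + 1) scale, with 1 symbol per tumor (red shades triple-mutant, blue shades double-mutant). Tumor 26043 carries the top value for most of the genes on the right, while S100a3 and Sprr1a have both red symbols above both blue ones.

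The sequences just before the starts of the members were read because several of them are known targets of AP-1, a dimer of Fos and Jun proteins that drives envelope genes. For 50 of the 59 rows RefSeq (GRCm38.p6, the assembly that mm10 represents) gave a start within 100 bases of that in the tables, and the 250 bases upstream were searched on both strands for the AP-1 motif TGANTCA and the TATA motif TATAAA. The AP-1 letters were in 16 of 50 member promoters (32.0%), against 6.75% of 32851 promoters, and the TATA letters in 19 of 50 (38.0%), against 12.37%. A half-site of the p53 family was in 3 of 50 (6.0%), against 7.13%. Most Sprr2 genes are close copies that share these letters at nearly the same place, though Sprr2a2 has neither motif, so the members are not independent. Among tested members the AP-1 letters were in Sprr1a, Lor and S100a16, whose genotypes did not overlap, and in S100a11 and Sbsn, whose genotypes did. They were not in S100a3, S100b and Anxa8, whose genotypes did not overlap either. Nor were they in S100a1, S100a4, S100a6, S100a8, S100a9, S100a13, Tgm1 and Sfn, whose genotypes overlapped. S100a10, S100a14, Calml3 and Ly6d, whose genotypes did not overlap, were not among the 50 rows searched. A match is a run of letters and not a shown binding site. The upstream sequences of Sprr1a (chr3:92485882-92486131, minus strand), Lor (chr3:92083143-92083392, minus strand), S100a16 (chr3:90540896-90541145, plus strand) and S100a3 (chr3:90599964-90600213, plus strand) are given 5′ to 3′ with AP-1 and TATA matches in capitals. They were chosen as the 3 tested genes with the AP-1 letters whose genotypes did not overlap, and S100a3 for its smallest adjusted p.
Sprr1a: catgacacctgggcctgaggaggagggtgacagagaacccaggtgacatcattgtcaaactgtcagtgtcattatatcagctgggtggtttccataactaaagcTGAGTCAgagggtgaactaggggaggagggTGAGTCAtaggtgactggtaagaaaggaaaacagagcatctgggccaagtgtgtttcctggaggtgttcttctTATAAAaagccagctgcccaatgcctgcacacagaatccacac
Lor: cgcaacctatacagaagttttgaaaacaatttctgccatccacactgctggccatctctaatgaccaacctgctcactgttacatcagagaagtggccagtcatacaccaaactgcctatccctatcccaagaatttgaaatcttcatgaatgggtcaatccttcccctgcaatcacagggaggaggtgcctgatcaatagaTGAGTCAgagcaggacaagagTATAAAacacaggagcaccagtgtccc
S100a16: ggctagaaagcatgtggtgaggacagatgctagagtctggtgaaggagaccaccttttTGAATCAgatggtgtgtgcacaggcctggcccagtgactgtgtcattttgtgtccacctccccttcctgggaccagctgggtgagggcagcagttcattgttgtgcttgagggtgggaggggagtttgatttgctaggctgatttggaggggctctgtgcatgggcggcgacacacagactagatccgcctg
S100a3: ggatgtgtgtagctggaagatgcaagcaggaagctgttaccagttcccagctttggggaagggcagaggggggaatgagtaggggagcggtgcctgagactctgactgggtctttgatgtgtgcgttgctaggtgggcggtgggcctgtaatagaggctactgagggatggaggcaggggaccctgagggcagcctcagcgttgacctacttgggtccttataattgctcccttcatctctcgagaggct
Counted backwards from -1 at the last base before the start, the AP-1 matches begin at -146 and -116 in Sprr1a, at -48 in Lor and at -192 in S100a16. In Sprr1a and Lor a TATA match stands between the AP-1 match and the start, and in S100a3 neither set of letters is found in the window.

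The S100 genes held most of the signal in every tumor. Their FPKM summed to 4618 and 2554 in triple-mutant against 2372 and 1521 in double-mutant tumors, and S100a6, S100a10 and S100a11 made up 88.9% to 92.2% of it. S100a11, which is both an annexin A1 partner and an envelope component of keratinocytes, was at 1833 and 866 FPKM in the triple-mutant tumors and at 1181 and 817 FPKM in the double-mutant tumors, with a log2 fold change of 0.36 (SE 0.49). The genotypes overlapped, and 41.1% of the 50-base windows of S100a11 transcripts also occur in Gm12854, so its level is uncertain. S100a6, calcyclin, was at 1741 and 466 FPKM against 603 and 174 FPKM, a log2 fold change of 1.47 (SE 0.90, limma adjusted p = 0.628). Here too the lower triple-mutant tumor fell below the higher double-mutant tumor, and the ratio within each genotype (3.74 and 3.46) was wider than the 2.84 between the means. Without tumor 26043 its log2 fold change was 0.52, and without tumor 26044 it was 2.42. S100a10, which forms a membrane complex with annexin A2, was at 533 and 1023 FPKM against 400.3 and 400.6 FPKM, a log2 fold change of 0.88 (SE 0.41, limma adjusted p = 0.552). Its genotypes did not overlap, and tumor 26044, not 26043, was the higher.

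S100a3, a zinc- and calcium-binding protein best known from the hair cuticle, had the smallest adjusted p of the members. It was at 9.0 and 17.3 FPKM in the triple-mutant tumors and at 0.264 and 0.348 FPKM in the double-mutant tumors. The means were 13.1 ± 5.86 and 0.306 ± 0.0594 FPKM (SD, n = 2 each), a 43.0-fold ratio and a log2 fold change of 3.37 (SE 0.42, limma adjusted p = 0.179). The distance between genotypes was wide against the spread within them, and the gene passed the filter only through the triple-mutant tumors. The hair follicle and epidermis markers Padi3, an enzyme that citrullinates S100a3 and trichohyalin, and Msx2, a follicle transcription factor, were likewise higher in both of the triple-mutant tumors. Padi3 was at 13.3 and 73.9 FPKM against 0.172 and 0.139 FPKM, with tumor 26044 the higher as for S100a3. The hair keratin genes Krt31, Krt33a and Krt35 and the inner root sheath gene Krt25 stayed between 0 and 0.0978 FPKM in all tumors. Krt71, also of the inner root sheath, was at 1.96 and 1.21 against 0 and 4.06 FPKM. Krt27 was higher in both double-mutant tumors, at 0.031 and 0 against 1.04 and 1.20 FPKM. Over the 11 genes of that marker list the summed FPKM was 23.7 and 80.5 against 5.06 and 7.17, and Padi3 and Msx2 passed the filter only through the triple-mutant tumors and Krt27 only through the double-mutant tumors, so that their order was set by it. The part of hair follicle cells in the S100a3 values was not tested.

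S100a14 and S100a16 are neighbouring S100 genes of epithelial cells. S100a14 was at 126 and 11.5 FPKM in the triple-mutant tumors and at 2.92 and 2.42 FPKM in the double-mutant tumors, with a log2 fold change of 3.45 (SE 1.14, limma adjusted p = 0.485). The double-mutant tumors were within 1.21-fold of each other, while the triple-mutant tumors were 10.9-fold apart. S100a16 was at 159 and 55.0 FPKM against 21.7 and 8.33 FPKM, a log2 fold change of 2.70 (SE 0.70, limma adjusted p = 0.44). Its 4 tumors formed a graded series, with similar ratios within the genotypes (2.89 and 2.60). Without tumor 26043 the log2 fold changes were 1.78 and 1.94, in the same direction.

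The other S100 genes differed little or followed single tumors. S100b, known from glial cells, melanocytes and myoepithelium, was at 6.12 and 19.0 FPKM in the triple-mutant tumors and at 3.69 and 5.85 FPKM in the double-mutant tumors, with a log2 fold change of 1.08 (SE 0.60, limma adjusted p = 0.601). The values of tumors 26043 and 26050 nearly met, and without tumor 26044 the log2 fold change was 0.33. S100a4, a regulator of cell motility, was at 71.4 and 21.4 FPKM against 38.0 and 17.9 FPKM, with 47.4% of its windows shared with Gm42674. S100a1, best known from heart and skeletal muscle, was at 61.7 and 36.0 FPKM against 66.8 and 26.3 FPKM. S100a13, which takes part in the non-classical export of growth factors, was at 43.1 and 29.6 FPKM against 45.7 and 20.1 FPKM. In these 3 genes the genotypes overlapped, with log2 fold changes of 0.57, 0.16 and 0.23 (SE 0.71, 0.56 and 0.49). S100a2 and S100a5 stayed at or below 0.196 FPKM.

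S100a8 and S100a9 encode the subunits of calprotectin, an abundant protein of neutrophils that stressed keratinocytes also make. S100a8 was at 26.3 and 6.82 FPKM in the triple-mutant tumors and at 6.79 and 24.9 FPKM in the double-mutant tumors, and S100a9 was at 8.67 and 2.1 FPKM against 1.14 and 23.7 FPKM. Both genes were high in 1 tumor of each genotype, 26043 and 26050, and their log2 fold changes were 0.04 (SE 0.87) and -0.41 (SE 1.32). Of the neutrophil marker list, 11 of 12 genes were found and 3 reached the filter, and its summed FPKM was 131 and 7.10 against 24.5 and 79.8. Most of that sum was Ltf, lactoferrin, which mammary epithelium also secretes, at 126 and 0.964 against 20.9 and 73.6 FPKM. Other neutrophil genes were lower, with Csf3r between 0.498 and 1.90 FPKM, Retnlg at most 0.554 FPKM, and Elane and Mpo at most 0.358 FPKM. Retnlg, Il1r2, Cd177 and, narrowly, Elane were higher in tumors 26043 and 26050 than in the others, at no more than 1.07 FPKM. Csf3r, Cxcr2, Mpo, Ngp and Mmp8 did not have this order. The granule gene Camp was at 4.52 FPKM in tumor 26044 and at most 0.221 FPKM elsewhere. The part of neutrophils in these values was not tested.

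Sprr1a was the only Sprr gene to pass the filter and had the largest fold change of the members. This crossbridging protein of the envelope was at 195 and 37.1 FPKM in the triple-mutant tumors and at 0.980 and 3.60 FPKM in the double-mutant tumors. The means were 116 ± 112 and 2.29 ± 1.85 FPKM (SD, n = 2 each), a 50.7-fold ratio and a log2 fold change of 4.84 (SE 0.92, limma adjusted p = 0.303). The genotypes were separated with either triple-mutant tumor left out, at log2 fold changes of 3.66 without tumor 26043 and 6.02 without tumor 26044. The remaining family was near 0. Sprr1b and Sprr4 were at 4.17 and 2.29 FPKM in tumor 26043 and at 0 in the others, and Sprr2g was at 2.13 FPKM in tumor 26044, at 0.0762 FPKM in tumor 26043 and at 0 in both double-mutant tumors. Sprr2f was listed at 0.466 and 0.594 FPKM in the triple-mutant tumors and at 0 in the double-mutant tumors. All Sprr genes other than Sprr1a were thus listed at 0 in both double-mutant tumors, and no fold is given for them. The Sprr2 genes are close copies, and 96.5% of the 50-base windows of Sprr2a2 transcripts also occur in Sprr2a1, so reads of that copy could be split or lost in counting, whereas Sprr1a and Sprr1b share none.

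Loricrin and involucrin, the main structural precursors, were low. Lor was at 3.63 and 1.76 FPKM in the triple-mutant tumors and at 1.24 and 0.281 FPKM in the double-mutant tumors, with a log2 fold change of 1.08 (SE 0.47, limma adjusted p = 0.535). Ivl reached 1.25 FPKM in tumor 26043 and was between 0.0331 and 0.160 FPKM elsewhere. The Lce genes, which are expressed in the last step of epidermal differentiation, were all under 1 FPKM, at most 0.146 FPKM, and 3 of the 18 (Lce1c, Lce1f and Lce6a) were above 0, in tumor 26043 alone. Flg2, filaggrin-2, was at 0.00377 FPKM in tumor 26044 and at 0 in the others. Between 9.12% and 27.1% of the windows of every Lce1 gene but Lce1m occur in another Lce gene, which would bear on any reads they had.

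The transglutaminases that crosslink the envelope differed from each other in level. Tgm1, the membrane-bound enzyme of keratinocytes, was at 14.4 and 1.83 FPKM in the triple-mutant tumors and at 3.37 and 2.39 FPKM in the double-mutant tumors, with a log2 fold change of 0.78 (SE 0.87, limma adjusted p = 0.781). It was highest in tumor 26043 and lowest in tumor 26044, and without tumor 26043 its log2 fold change was -0.45. Tgm3, of hair and upper epidermis, was at most 0.0621 FPKM.

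Ly6d, Calml3 and Anxa8, genes of the surface and cytoplasm of epithelial cells, were higher in both triple-mutant tumors. Ly6d, a GPI-anchored surface protein of stratified epithelia, was at 632 and 35.9 FPKM in the triple-mutant tumors and at 17.7 and 5.16 FPKM in the double-mutant tumors, with a log2 fold change of 3.83 (SE 1.48, limma adjusted p = 0.514). The genotypes did not overlap, but the triple-mutant tumors were 17.6-fold apart, and the log2 fold change was 1.78 without tumor 26043. Calml3, a calmodulin-like protein of epithelial cells, was at 43.7 and 15.4 FPKM against 7.87 and 1.05 FPKM, a log2 fold change of 2.67 (SE 0.90, limma adjusted p = 0.486). Anxa8, an annexin of basal epithelia, was at 51.2 and 6.34 FPKM against 4.69 and 0.866 FPKM, a log2 fold change of 2.59 (SE 1.12, limma adjusted p = 0.535). Without tumor 26043 the log2 fold change of Anxa8 was 1.17 and that of Calml3 1.94, and without tumor 26044 they were 4.0 and 3.39. In Calml3, Anxa8 and Ly6d the 4 tumors had the same order, from 26043 down to 26044, 26048 and 26050. This order was also that of S100a14, S100a16 and Lor. Anxa8 is overlapped by the gene A630023A22Rik (chromosome 14 from 34051130 to 34102754 on mm10), and Calml3 and Ly6d by none in the tables.

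Sfn and Sbsn were abundant but did not separate the genotypes. Sfn, stratifin, a target of p53 in epithelial cells, was at 181 and 38.8 FPKM in the triple-mutant tumors and at 40.8 and 23.3 FPKM in the double-mutant tumors, with a log2 fold change of 1.42 (SE 0.81) that was 0.32 without tumor 26043, and 15.0% of its windows occur in another gene. Sbsn, suprabasin, was at 36.2 and 3.68 FPKM against 13.2 and 12.9 FPKM, a log2 fold change of -0.09 (SE 1.03). The double-mutant tumors lay between the triple-mutant tumors. Krtdap, a secreted protein of suprabasal keratinocytes, was at 44.3 FPKM in tumor 26043, at 0.296 FPKM in tumor 26044 and at 0 in both double-mutant tumors. Cnfn, cornifelin, was at 3.89 FPKM in tumor 26043 and at most 0.238 FPKM elsewhere. Both genes thus reached 1 FPKM in 1 tumor of 4 and were not tested.

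**Figure D2:**
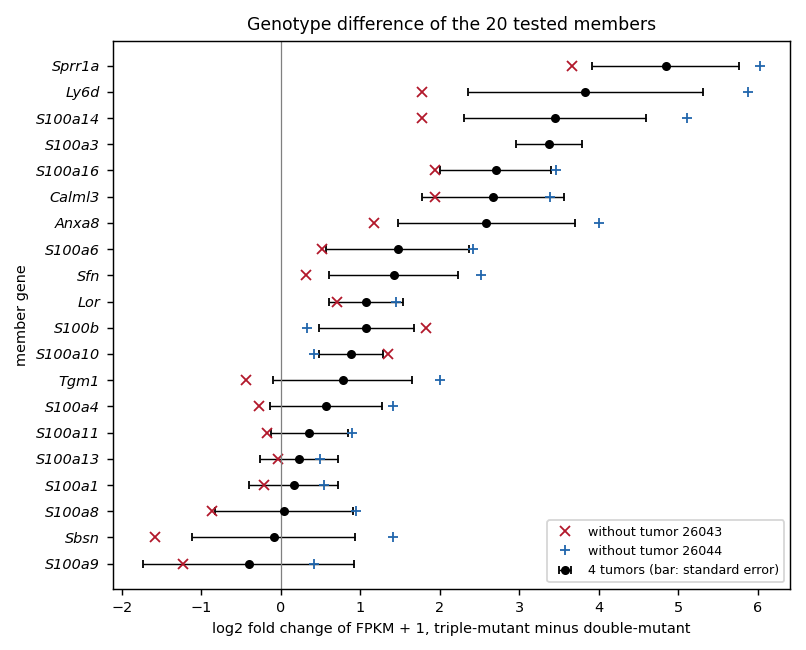
Log2 fold change of FPKM + 1 (triple-mutant minus double-mutant) for the 20 tested members, with the standard error from limma as bars and the value without each triple-mutant tumor as crosses. Sprr1a, Ly6d, S100a14, S100a16, Calml3 and Anxa8 are among those that stay above 0 without tumor 26043. Tgm1, Sbsn, S100a1, S100a4, S100a8, S100a9, S100a11 and S100a13 lie below 0 without it. S100a3 has no cross because it falls under the filter without either tumor.

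Leaving out tumor 26043 lowered the log2 fold change of every member that could still be fitted other than S100b and S100a10. The median over the S100 genes was then -0.038, and 9 members were higher in the remaining triple-mutant tumor than in both double-mutant tumors. Without tumor 26044, or without tumor 26048, that count was 16. The FPKM of many members also lay outside the interval Cufflinks gives for it, in all 4 tumors for Ly6d, Sfn, S100a4, S100a6, S100a8, S100a10, S100a11, S100a13 and S100a16, and in none for S100b, S100a14, Tgm1 and Sbsn. For Ly6d in tumor 26043 the value of 632 FPKM stood beside an interval of 282 to 304 FPKM, and for S100a6 the value of 1741 FPKM beside 1004 to 1046 FPKM. With interval midpoints used instead, 9 members were higher in both of the triple-mutant tumors, while the log2 fold changes of Ly6d, S100a6, Sprr1a and S100a3 were 3.53, 1.41, 4.13 and 2.77.

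On chromosome 3, 49 of the members lie within 3054 kb (90511034 to 93564645 on mm10), the epidermal differentiation complex, where S100 genes flank the Sprr, Lce and filaggrin-type genes. Of these 49, 13 reached the filter, the S100 genes of both ends together with Lor and Sprr1a. The interval also holds 19 other genes in the tables, none of which (0 of 19) reached the filter and 7 of which were listed at 0 in all tumors. The highest of the 19 was Crct1, cysteine-rich C-terminal 1, at 9.06 and 0.512 FPKM in the triple-mutant tumors and at 0 in both double-mutant tumors. Pglyrp3, a peptidoglycan recognition protein, was at 4.51 FPKM in tumor 26043 and at most 0.125 FPKM elsewhere. S100a7a, the mouse psoriasin gene, which has a letter after its number and so is no member, was at 1.12, 0.442, 0.0814 and 0.227 FPKM in tumors 26043, 26044, 26048 and 26050. The levels along the complex were therefore uneven, with S100a10 and S100a11 at one end, S100a6 near the other and long runs of genes at or near 0 between them.

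**Figure D3:**
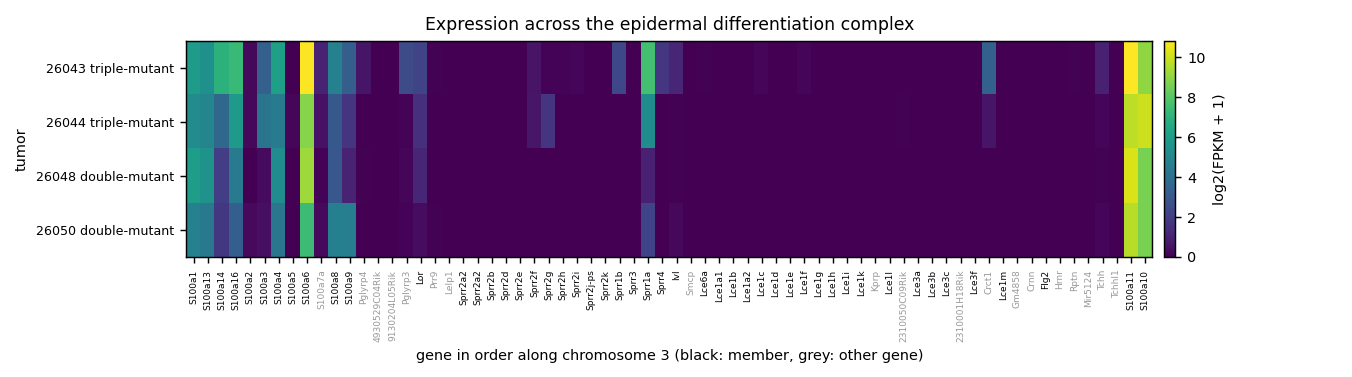
Log2(FPKM + 1) of each gene of the epidermal differentiation complex in its order along chromosome 3 (columns; members in black, other genes in grey) in the 4 tumors (rows), with the colour bar giving the scale. Bright columns mark S100a6, S100a10 and S100a11 in all tumors and Sprr1a in the triple-mutant tumors, and the Lce stretch is dark throughout.

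Of the transcription factors that regulate keratinocyte differentiation, 31 of 32 were tested, 0 passed the adjusted threshold of limma (4 had an unadjusted p under 0.05, against 9.82% overall), 5 were higher in both triple-mutant tumors (all genes 21.3%) and 5 in both double-mutant tumors (22.9%), with a median log2 fold change of -0.02. Trp63, the master regulator of stratified epithelia, was at 28.5 and 48.1 FPKM in the triple-mutant tumors and at 1.24 and 0.670 FPKM in the double-mutant tumors, with a log2 fold change of 4.30 (SE 0.41, limma adjusted p = 0.143). Hopx, a homeodomain-only factor of differentiating keratinocytes, was at 47.7 and 14.1 FPKM against 1.45 and 0.555 FPKM. The luminal ETS factors Elf5 and Ehf were lower in both triple-mutant tumors, with log2 fold changes of -2.37 and -2.16, mostly through tumor 26044 (4.84 and 2.41 FPKM). Klf4, a driver of barrier formation, was at 42.7 and 1.73 FPKM against 6.95 and 7.34 FPKM, and Grhl3, which activates Tgm1, was at 8.31 and 2.31 FPKM against 2.58 and 0.541 FPKM. Both were highest in tumor 26043, which was the highest for 14 of the 31 tested factors, against 27.9% of all genes. Of the AP-1 genes, Junb was at 119 and 64.2 FPKM against 142 and 88.3 FPKM, and Jun at 56.2 and 19.5 FPKM against 55.0 and 29.2 FPKM, so both overlapped between genotypes.

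Envelope scaffold and crosslinking partners, a list of desmosomal genes and others such as Tgm2 and Cstb, were tested for 12 of 28 genes found. Of the 12, 0 passed the adjusted threshold of limma (1 had an unadjusted p under 0.05, against 9.82% of all genes). Among them 5 were higher in both triple-mutant tumors (all genes 21.3%) and 0 in both double-mutant tumors (22.9%). Perp, a desmosomal protein under control of p63, was at 288 and 315 FPKM in the triple-mutant tumors and at 16.3 and 25.4 FPKM in the double-mutant tumors, with a log2 fold change of 3.82 (SE 0.32, limma adjusted p = 0.143). Jup, Dsp and Pkp3 followed with log2 fold changes of 0.73, 0.90 and 0.83. Tumor 26043 was the highest for 11 of the 12, against 27.9% of all genes. The keratinocyte cadherin gene Dsg3 was at 22.3 FPKM there and at most 0.542 FPKM elsewhere. Evpl and Ppl, which encode the plakins envoplakin and periplakin, were at 20.4 and 16.1 FPKM in tumor 26043, at 0.781 and 1.06 FPKM in tumor 26044 and in between in the double-mutant tumors.

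Among genes that process filaggrin or make barrier lipids, 9 of 17 found were tested. Of the 9, 0 passed the adjusted threshold of limma (2 had an unadjusted p under 0.05, against 9.82% of all genes). Higher in both triple-mutant tumors were 3 (all genes 21.3%). They were the protease gene Klk8 (log2 fold change 2.11), the fatty acid elongase gene Elovl4 (1.78) and Smpd1 (0.27), acid sphingomyelinase. Klk8 and Elovl4 passed the filter only through the triple-mutant tumors and so had to differ. Dmkn, dermokine, which neighbours Sbsn and Krtdap on chromosome 7, was at 79.5 FPKM in tumor 26043 and at 2.27, 3.47 and 9.32 FPKM in tumors 26044, 26048 and 26050. Asprv1, the protease that cleaves profilaggrin, was at 52.8 FPKM in tumor 26043 and at 1.34, 7.30 and 2.81 FPKM in the others. Of the keratins of suprabasal and squamous epithelia, 3 of 12 were tested. Of the 3, 0 passed the adjusted threshold of limma (1 had an unadjusted p under 0.05, against 9.82% of all genes). Higher in both triple-mutant tumors were 2 (all genes 21.3%), of which Krt6a passed the filter only through these tumors. Krt17 was at 435 and 155 FPKM in the triple-mutant tumors and at 3.24 and 4.77 FPKM in the double-mutant tumors, with a log2 fold change of 5.72 (SE 0.57, limma adjusted p = 0.143). Krt6a, a keratin of activated and hyperproliferative keratinocytes, was at 109 and 1.88 FPKM against 0.0989 and 0.312 FPKM, and its partner Krt16 was at 47.5 FPKM in tumor 26043 and at most 0.471 FPKM elsewhere. Krt1, the suprabasal keratin of epidermis, was at most 0.711 FPKM, and Krt10 overlapped between genotypes, at 3.23 and 2.59 against 3.55 and 1.21 FPKM.

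Partners and receptors of S100 proteins had summed FPKM of 1885 and 1855 in the tumors of triple-mutant and of 1569 and 1257 in those of double-mutant females. All 11 were tested, and 0 passed the adjusted threshold of limma (1 had an unadjusted p under 0.05, against 9.82% of all genes). Of the 11, 1 was higher in both triple-mutant tumors (all genes 21.3%) and 3 in both double-mutant tumors (22.9%). The median log2 fold change was -0.23. Bsg, basigin, a receptor of calprotectin, was at 551 and 1192 FPKM against 356 and 396 FPKM, a log2 fold change of 1.11 (SE 0.46). Anxa6, Tlr4 and Cacybp, the last a calcyclin-binding protein, had log2 fold changes of -0.84, -0.70 and -0.57. Anxa2, the partner of S100a10, was at 565 and 256 FPKM in the triple-mutant tumors and at 268 and 184 FPKM in the double-mutant tumors, and the genotypes overlapped.

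Markers of other cells moved between the tumors as well. Of the basal epithelial markers, 7 of 8 were higher in both triple-mutant tumors (all genes 21.3%), 0 passed the adjusted threshold of limma and 5 had an unadjusted p under 0.05 (all genes 9.82%). They summed to 1384 and 1178 FPKM in the triple-mutant tumors and to 74.6 and 44.9 FPKM in the double-mutant tumors. Krt5 was at 596 and 114 FPKM against 1.15 and 2.06 FPKM, and the smooth muscle actin gene Acta2 was at 898 FPKM in tumor 26044 and between 31.8 and 64.8 FPKM elsewhere. Luminal epithelial markers summed to 2979 and 443 against 2339 and 2100 FPKM, with a median log2 fold change of -1.13. Of these 10, 3 were higher in both triple-mutant tumors (all genes 21.3%). The 4 higher in both double-mutant tumors (all genes 22.9%) were Krt8, Krt18, Epcam and Elf5. Epcam was at 25.7 FPKM in tumor 26044, against 347, 516 and 390.1 FPKM in tumors 26043, 26048 and 26050. Krt19, Esr1 and Pgr were higher in both triple-mutant tumors, Krt19 at 1154 and 194 against 139 and 56.7 FPKM. Esr1 was at 3.66 and 1.39 against 0.325 and 0.354 FPKM, and Pgr at 4.45 and 1.06 against 0.122 and 0.0218 FPKM. Esr1 and Pgr passed the filter only through the triple-mutant tumors, so their order was set by it. In tumor 26044 Krtdap, Krt6a and Krt16 were at most 1.88 FPKM. Fibroblast markers summed to 211 and 129 against 926 and 451 FPKM, macrophage markers to 684 and 413 against 1090 and 803 FPKM, adipocyte markers to 9.43 and 261 against 2015 and 36.4 FPKM, and T and B cell markers to at most 3.01 FPKM. The part of these cell types in the values of the members was not tested.

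**Figure D4:**
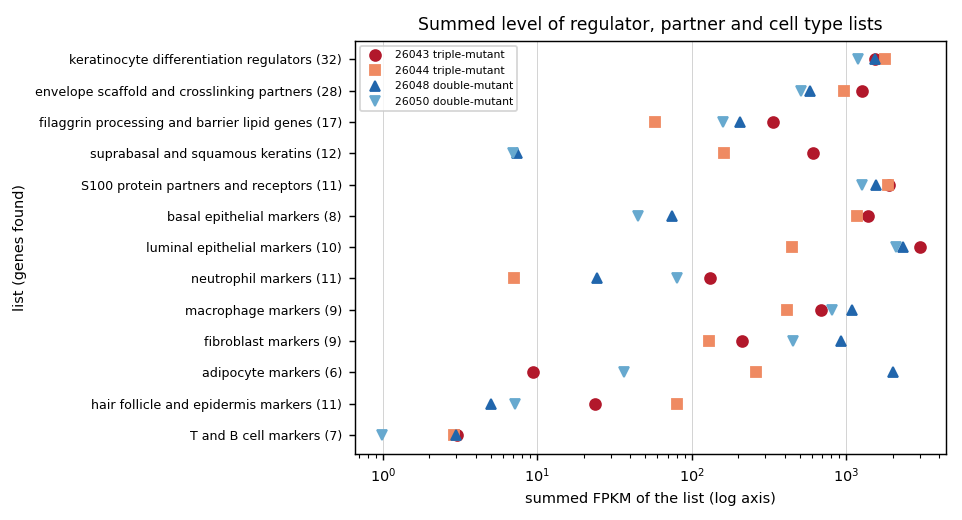
Summed FPKM (log axis) of the genes found of each regulator, partner and cell type list, with 1 symbol per tumor. Basal markers and squamous keratins have both triple-mutant tumors to the right of both double-mutant tumors, and tumor 26044 lies far to the left for luminal and neutrophil markers.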

How the data were processed

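Samples were grouped by the genotype in their labels, 2 triple-mutant and 2 double-mutant tumors. The authors prepared strand-specific libraries (dUTP, TruSeq) from polyA RNA and sequenced 50-bp single-end reads. Per the submitters' processing notes, TopHat 2.0.10, Bowtie 0.12.9, HTSeq, Cufflinks 2.1.1, DESeq2 1.6.2 and mm10 were used, and the gene annotation is not given in the sources used here. The deposited tables hold the FPKM that Cufflinks estimated per gene in each tumor, with an interval and a status, which was OK for every member. Because FPKM are not counts, the design of the study (genotype as the single factor, a threshold of 0.05) was applied through limma (version 3.58.1, R 4.3.3, lmFit and trended eBayes) to log2(FPKM + 1) of genes that reached 1 FPKM in 2 or more of the 4 tumors. DESeq2 was not run. A marker list, fixed for comparison with S100b, is not reported here.

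The members and lists were chosen with earlier results of these data known. Every tested member was named, as were members with 1 tumor at 1 FPKM. Of each companion list the 4 genes of largest change whose genotypes did not overlap were to be named. This rule was not followed in full for the basal, neutrophil, macrophage, fibroblast, adipocyte and T and B cell markers. Other genes of these lists were chosen after their values were seen, as were Crct1, Pglyrp3 and S100a7a, since no non-member in the interval was tested. Starts count from 0 in the tables, and 1 was added. Transcript windows of 50 bases were compared over all transcripts of the reference annotation. Scripts were tested on simulated data. Alternatives were a pseudocount of 0.1 FPKM, no filter, a filter of 5 FPKM, TPM rescaling, quantile normalization, no trend, genes of status OK, no small RNA genes, the interval midpoint and each tumor left out. Tables were joined in Python 3.11.15 with numpy 2.4.6 and pandas 2.3.3, and plots were drawn with matplotlib 3.10.9.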

Additional observations from a re-analysis of the deposited data

How the results depend on the processing

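Under all 13 alternatives 0 members passed the adjusted threshold, and the smallest adjusted p of a member was 0.127. The settings with all 4 tumors kept the direction of every tested member. Without a filter, 1 member was higher in both double-mutant tumors (Tgm3, under 0.1 FPKM throughout) and the median of the Sprr members was 0.0, since most are listed at 0. Leaving out 1 tumor gave 9 to 16 members higher in the triple-mutant and 0 to 2 in the double-mutant tumors, and a median of the S100 members of -0.038 (without tumor 26043) to 0.90, while the median of all genes moved to between -0.13 and 0.05. The sign of 8 members changed when 1 tumor was left out. Their log2 fold changes ran from -0.45 to 2.0 for Tgm1, -0.49 to 0.82 for S100a1, -0.35 to 0.80 for S100a13, -0.28 to 1.42 for S100a4, -0.86 to 0.94 for S100a8, -0.18 to 0.90 for S100a11, -2.17 to 1.36 for S100a9 and -1.59 to 1.41 for Sbsn. A pseudocount of 0.1 FPKM in place of 1 moved S100a3 from 3.37 to 4.96 and Lor from 1.08 to 1.88. S100a3 could not be fitted without either triple-mutant tumor, nor Lor with interval midpoints, as each fell under the filter. Quantile normalization gave 6 genes under the threshold over the whole table, omitting the trend 5 and interval midpoints 1, none of them a member. With a tumor left out, its genotype has 1 tumor, which is assumed to vary like the other genotype. No paired analysis was possible because the tumor numbers differ between the genotypes and the littermates are not given. Depth is unknown, so values near 0 do not show that a gene is silent.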
